A study of Mus musculus with 7 samples.

Results

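The heptad is a set of transcription factors, Gata2, Tal1, Lyl1, Lmo2, Runx1, Erg and Fli1, that sit together on enhancers of blood stem and progenitor cells. Its levels are described here in sorted haematopoietic stem cells of mouse fetal liver, by genotype. The members were every probe set whose annotation names 1 of the 7 genes alone, which gave 13 of 22626 probe sets, or 7 of 12393 genes. No probe set named a heptad gene beside another gene. Runx1 had 5 probe sets, Gata2 and Fli1 had 2 each, and Tal1, Lyl1, Lmo2 and Erg had 1 each.

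The samples were 3 of TFIIAα-β nc/nc embryos (nc/nc below), in which both alleles make an uncleavable TFIIAα-β, and 4 of wild-type embryos. All came from crosses of nc/+ parents and were taken at embryonic day 14.5. The nc/nc samples 1, 2 and 3 pooled the livers of 2, 2 and 4 littermates, and the wild-type samples 1, 2, 3 and 4 held 1, 1, 4 and 3 embryos. Lineage-negative cells with Sca-1, c-Kit and CD150 on their surface were sorted, and each sample was read on 1 Affymetrix array. The strain is not given in the labels used here. TFIIA is a general factor that steadies the TATA-binding protein on promoters, and its large subunit is normally cut by the protease Taspase1. The comparison of the genotypes asks how the stem cells' transcripts differ when that cut cannot be made.

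Within the heptad the factors divide the work. Tal1 and Lyl1 are basic helix-loop-helix proteins that bind E-boxes together with E proteins, and Gata2 is a zinc finger protein that binds GATA sites. Lmo2 does not touch DNA and joins Tal1 or Lyl1 to Gata2 through the adaptor Ldb1. Runx1, which pairs with Cbfb, and the ETS proteins Erg and Fli1 bind their own motifs beside that complex. Loss of several of these factors blocks the formation or the maintenance of blood stem cells, and most of them are also made by endothelial cells, which share an origin with blood.

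Several heptad genes are themselves regulated by heptad factors, so the promoter letters are shown for a DNA-binding partner of Lmo2 (Tal1), for its closest relative (Lyl1), and for both starts of the gene with most probe sets (Runx1). The windows are the 250 bases before the start in RefSeq, build GRCm38.p6, printed 5′ to 3′ on the gene's strand. Capitals mark matches, on either strand, to GATA (the GATA factors), GGAA (the core of ETS sites), CANNTG (the E-box) and TGTGGT (a RUNX site). Neighbouring or overlapping matches run together.
Tal1 upstream start, chr4:115056176-115056425, plus strand: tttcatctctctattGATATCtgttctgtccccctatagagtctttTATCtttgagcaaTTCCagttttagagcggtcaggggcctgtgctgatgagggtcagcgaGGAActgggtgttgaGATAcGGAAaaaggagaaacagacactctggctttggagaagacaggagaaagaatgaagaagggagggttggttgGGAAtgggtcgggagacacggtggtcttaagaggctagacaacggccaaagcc
Lyl1, chr8:84701207-84701456, plus strand: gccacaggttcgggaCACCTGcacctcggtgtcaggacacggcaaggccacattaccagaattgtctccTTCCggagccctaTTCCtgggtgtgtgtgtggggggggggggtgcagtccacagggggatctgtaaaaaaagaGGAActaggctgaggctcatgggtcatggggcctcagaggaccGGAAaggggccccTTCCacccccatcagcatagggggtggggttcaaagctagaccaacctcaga
Runx1 upstream start, chr16:92826075-92826324, minus strand: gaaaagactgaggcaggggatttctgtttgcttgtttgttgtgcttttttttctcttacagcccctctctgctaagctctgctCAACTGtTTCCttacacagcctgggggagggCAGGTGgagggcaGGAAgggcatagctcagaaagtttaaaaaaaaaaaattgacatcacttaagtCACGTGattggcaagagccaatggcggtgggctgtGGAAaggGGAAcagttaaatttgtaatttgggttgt
Runx1 downstream start, chr16:92697330-92697579, minus strand: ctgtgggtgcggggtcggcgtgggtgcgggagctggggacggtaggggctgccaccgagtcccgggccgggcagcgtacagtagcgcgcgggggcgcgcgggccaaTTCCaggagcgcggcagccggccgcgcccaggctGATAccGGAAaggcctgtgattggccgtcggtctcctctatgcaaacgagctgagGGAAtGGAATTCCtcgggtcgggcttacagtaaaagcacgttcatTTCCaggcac

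The Tal1 window shown holds 4 matches to GATA and 4 to GGAA. A second Tal1 window, chr4:115057561-115057810, holds 0 to GATA and 3 to GGAA. The Lyl1 window holds 5 to GGAA and 1 to CANNTG. At Runx1 the upstream window holds 4 matches to GGAA and 3 to CANNTG, and the downstream window 6 to GGAA and 1 to GATA. Of the 7 members 5 matched the RefSeq promoters, with 10 windows. Of these 10, 9 hold GGAA, 4 hold GATA, 3 hold CANNTG and 0 hold TGTGGT. Over 32817 windows of the same length the shares are 93.4% for GGAA, 53.6% for GATA, 66.2% for CANNTG and 14% for TGTGGT. These short motifs are common, and a match describes letters only.

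The sort was checked against its own markers. Kit read 7.50 to 9.06 on the log2 scale over the 7 arrays. Its dimmer probe set read 2.53 to 3.85. Slamf1, which encodes CD150, read 6.12 to 6.92. The 5 measured lineage genes (Cd3e, Cd3d, Cd3g, Cd4 and Cd8a) averaged 2.61 to 2.87 per array, below every array's median of 3.69 to 3.82. Transcripts of endothelium stood apart in 3 arrays. The mean of 18 endothelial genes was 6.58 in nc/nc 1, 7.02 in nc/nc 2 and 6.72 in wild-type 1, and 3.77 to 4.02 in nc/nc 3 and wild-type 2, 3 and 4. Of the 18 genes, 16 were higher in all 3 of those arrays than in any of the other 4. The arrays were split at the largest gap in this same mean, so the count only describes the split. Kit was lower in those arrays, at 7.50, 8.08 and 7.61 against 8.18 to 9.06 in the other 4. Slamf1 overlapped, at 6.22 to 6.51 and 6.12 to 6.92. A link of the Kit level to the heptad levels was not tested. The mean of 13 macrophage genes was 3.84 to 5.05 in nc/nc and 2.80 to 4.37 in wild type, that of 10 megakaryocyte genes 4.58 to 4.69 and 4.04 to 5.10, that of 12 liver parenchyma genes 3.45 to 4.82 and 3.39 to 4.13, that of 9 erythroid genes 3.68 to 4.06 and 3.47 to 4.17, and that of 8 mast cell genes 2.81 to 3.15 and 2.82 to 3.02. Some genes of these lists followed the endothelial arrays. Clec1b, of the megakaryocyte list, read 6.12, 6.30 and 6.39 in nc/nc 1, nc/nc 2 and wild-type 1 and 2.37 to 4.92 elsewhere. Mrc1, of the macrophage list, read 8.62, 8.66 and 9.03 there and 3.19 to 4.45 elsewhere. Pf4 and C1qa, of the same lists, overlapped, at 6.06 to 6.97 and 5.25 to 6.55, and at 2.24 to 3.97 and 2.19 to 5.01. In RNA of a whole sort, fewer cells of a type and less RNA per cell cannot be told apart. The part of these other cells in the genotype differences was not tested, beyond the endothelial values given beside them.

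None of the 7 heptad genes passed the test between the genotypes. Lmo2 gave the smallest p, 1.3-fold lower in nc/nc. Tal1 also lay lower in every nc/nc sample than in any wild-type sample, by a narrow margin. Gata2 was level, and Runx1 and Fli1 varied more among the wild-type samples than between the genotypes. The gene fit (limma, Benjamini-Hochberg adjusted over 12393 genes, threshold 0.05) called 0 of 7, with adjusted p of 0.934 to 0.998, against 0.00807% of all genes, which is Galc alone. Over probe sets it called 0 of 13 heptad probe sets, against 0.00442% of all 22626. At an unadjusted p under 0.05 there was 1 member of 7, Lmo2, where 2.53% of all genes were that far lower and 2.12% that far higher. The groups did not overlap for 2 of 7, Lmo2 and Tal1, both lower in nc/nc, against 3.07% of all genes lower and 3.23% higher. Over the 7 genes 4 differences were below 0 and 3 above, with a median of −0.17 on the log2 scale, beside −0.01 over all genes. Over the 13 probe sets 6 were below 0 and 7 above, with a median of 0.0. The median of the 7 genes was −0.03 with the endothelial mean as a covariate. It was −0.26 without wild-type 1, −0.07 without wild-type 3, −0.04 without wild-type 4 and −0.08 without nc/nc 1.

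**Figure D1:**
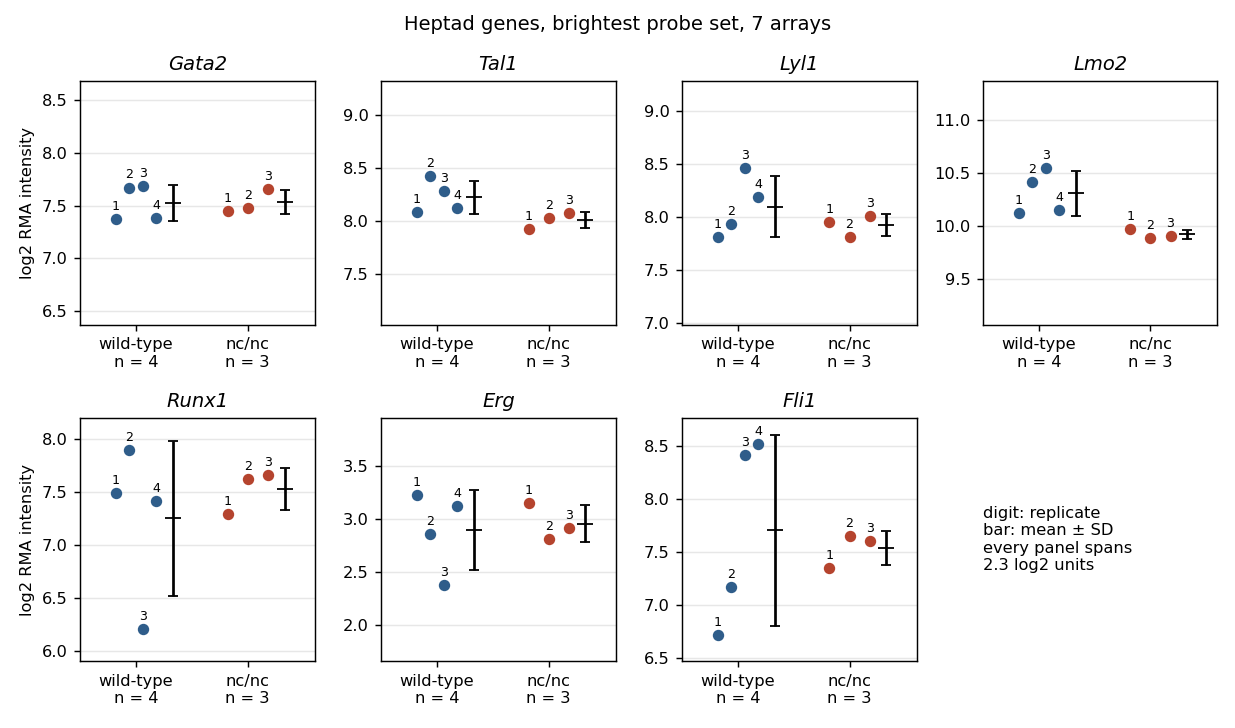
Log2 RMA intensity of the brightest probe set of each heptad gene in the 4 wild-type (blue) and 3 nc/nc (red) arrays, with the replicate number at each point and the group mean ± SD as a black bar. The Lmo2 points of nc/nc, at 9.89 to 9.97, lie below all wild-type points, at 10.12 to 10.55, while Runx1 and Fli1 spread widely in wild type.

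Lmo2 (Entrez gene 16909, probe set 1454086_a_at), the bridging protein of the complex, read 9.97, 9.89 and 9.91 in nc/nc samples 1, 2 and 3 and 10.12, 10.42, 10.55 and 10.15 in wild-type samples 1, 2, 3 and 4. All 3 nc/nc samples lay close together and below every wild-type sample. The means were 9.93 ± 0.04 (SD, n = 3) and 10.31 ± 0.21 (SD, n = 4), a difference of −0.38 (SE 0.15, 95% interval −0.73 to −0.04). The unadjusted limma p was 0.034 and the adjusted p 0.934, so the difference did not pass over all genes. The 3 arrays of high endothelial mean averaged 9.99 and the other 4 averaged 10.26. Wild-type 1, with a high endothelial mean, was the lowest wild-type array, at 10.12 against an average of 10.37 for the other wild-type arrays. Sample nc/nc 3, with a low one, read 9.91. The genotype difference was −0.34 after adjustment for the endothelial mean.

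Tal1 (Entrez gene 21349, probe set 1449389_at), the helix-loop-helix factor needed for blood formation in the embryo, read 7.92, 8.03 and 8.07 in nc/nc and 8.08, 8.42, 8.28 and 8.12 in wild type. The groups did not overlap, but nc/nc 3 at 8.07 and wild-type 1 at 8.08 nearly met. The means were 8.01 ± 0.08 (SD, n = 3) and 8.22 ± 0.16 (SD, n = 4). The difference of −0.21 (SE 0.14, 95% interval −0.54 to 0.11) had a limma p of 0.172 unadjusted and 0.934 adjusted. It was −0.16 with the endothelial mean as a covariate.

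Lyl1 (Entrez gene 17095, probe set 1419120_at), the relative of Tal1 that can stand in for part of its work in adult stem cells, read 7.95, 7.81 and 8.01 in nc/nc and 7.81, 7.94, 8.46 and 8.19 in wild type. The groups overlapped, with wild-type 3 the highest and wild-type 1 level with the lowest nc/nc sample. The difference was −0.18 (SE 0.18, 95% interval −0.58 to 0.22; limma adjusted p = 0.939). Without wild-type 3 it was −0.06, without wild-type 1 −0.28, and with the endothelial mean as a covariate −0.08.

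Gata2 (Entrez gene 14461), the GATA factor of stem cells and early progenitors, read 7.45, 7.48 and 7.66 in nc/nc and 7.37, 7.67, 7.68 and 7.38 in wild type on its brighter probe set, 1450333_a_at. The range over all 7 arrays was 0.31, the narrowest of the 7 genes. The group means were 7.53 ± 0.12 (SD, n = 3) and 7.52 ± 0.17 (SD, n = 4), and the 95% interval of the difference ran from −0.34 to 0.34. The dimmer probe set, 1428816_a_at, read 7.15, 7.29 and 7.33 in nc/nc and 7.13, 7.12, 7.28 and 7.58 in wild type and differed by −0.02. Both probe sets thus gave differences near 0, and the interval leaves room for a change of up to 0.34 either way.

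**Figure D2:**
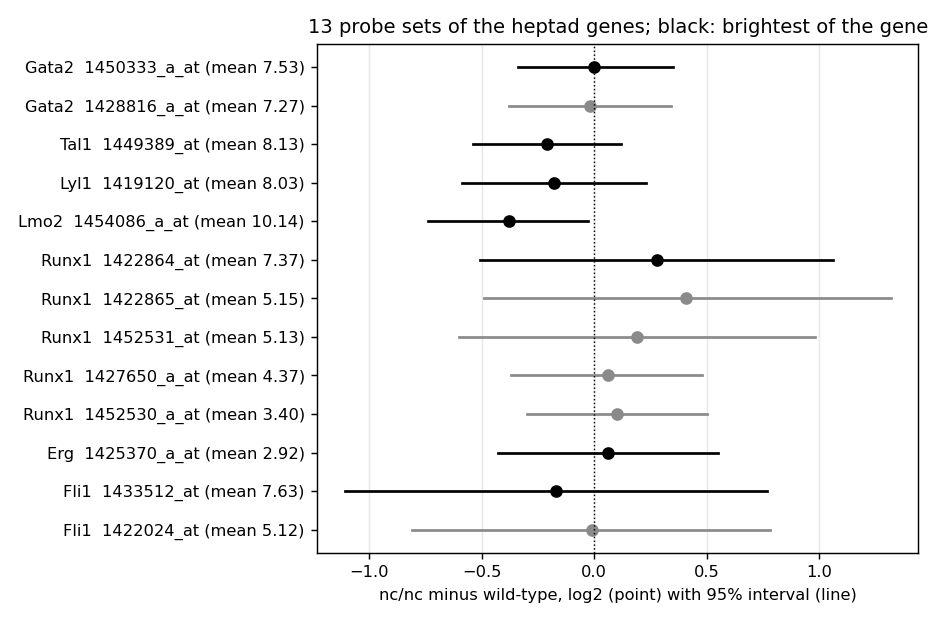
Log2 difference (nc/nc minus wild-type) for each of the 13 heptad probe sets, as a point with its 95% interval from the limma fit of all probe sets, with the probe set's mean log2 level in brackets. The interval of Lmo2, −0.74 to −0.03, is the only one that leaves out 0 before adjustment, and those of Fli1 1433512_at, −1.11 to 0.77, and Runx1 1422865_at, −0.49 to 1.32, are the widest of the 13.

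Runx1 (Entrez gene 12394), the runt factor that starts blood stem cell formation, was read by 5 probe sets that did not follow each other. The brightest, 1422864_at, read 7.30, 7.63 and 7.66 in nc/nc and 7.49, 7.90, 6.21 and 7.42 in wild type. Wild-type 3 stood apart below the other 6 arrays, which lay between 7.30 and 7.90. The difference was 0.28 (SE 0.35, 95% interval −0.50 to 1.06; limma adjusted p = 0.947), and without wild-type 3 it was −0.07, so its sign rested on that array. It was 0.49 without wild-type 2.

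The probe set 1452531_at was also lowest in wild-type 3, at 4.27, with wild-type 4 next at 4.55 and 5.13 to 5.71 elsewhere. The probe set 1422865_at was instead lowest in wild-type 1, at 3.99, against 4.78 to 5.83 in the other arrays. The probe set 1427650_a_at was highest in wild-type 3, at 4.73, over a range of only 0.64, and the dim 1452530_a_at read 2.99 to 3.64. All 5 probe sets had a higher mean in nc/nc, by 0.06 to 0.41, and in each the groups overlapped. They do not give 1 order of the arrays, and which transcripts each reads was not analysed here.

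Fli1 (Entrez gene 14247), an ETS factor of blood, platelets and endothelium, read 7.35, 7.65 and 7.60 in nc/nc and 6.71, 7.17, 8.41 and 8.52 in wild type on its brighter probe set, 1433512_at. The wild-type samples lay on both sides of the nc/nc samples, with 1 and 2 below all of them and 3 and 4 above. Their SD was 0.90 (n = 4) against 0.16 (n = 3) in nc/nc. The difference was −0.17 (SE 0.41, 95% interval −1.10 to 0.76; limma adjusted p = 0.975) and turned to 0.07 without wild-type 3 and to 0.10 without wild-type 4. It was −0.50 without wild-type 1, −0.35 without wild-type 2, −0.08 without nc/nc 1 and 0.11 after adjustment for the endothelial mean. In wild type the single embryos, samples 1 and 2, were the low ones and the pools of 4 and 3 embryos the high ones. The nc/nc pools of 2, 2 and 4 embryos read 7.35, 7.65 and 7.60. Wild-type 1 also had a high endothelial mean, and a part of embryo number in the Fli1 level was not tested. With embryo number as a covariate the difference was −0.34 (SE 0.28).

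The dimmer Fli1 probe set, 1422024_at, read 4.96, 5.06 and 5.33 in nc/nc and 5.72, 5.71, 4.17 and 4.92 in wild type. Here wild-type 1 and 2 were the highest arrays and wild-type 3 the lowest, so wild-type 1 and 2 read above 3 and 4, where the brighter probe set had them below. The nc/nc samples lay in the middle on both probe sets. The difference was −0.01 (SE 0.35).

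**Figure D3:**
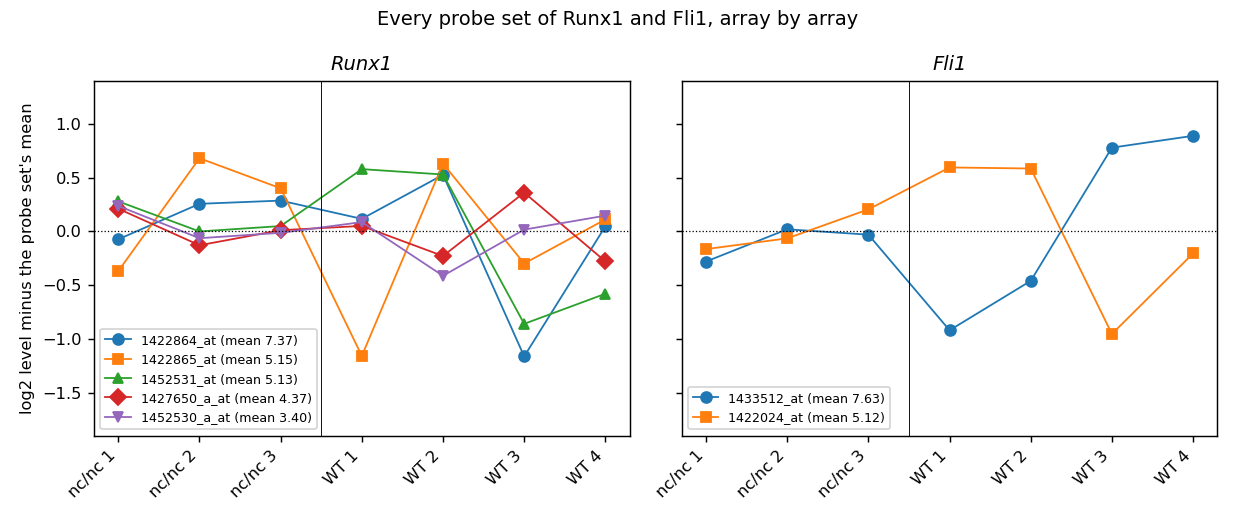
Log2 level of each Runx1 (left, 5 probe sets) and Fli1 (right, 2 probe sets) probe set minus its own mean, in the 3 nc/nc and 4 wild-type (WT) arrays; lines only join points of 1 probe set. In wild-type 1 and 2 one Fli1 probe set lies below its mean and the other above it, and Runx1 probe sets differ in which array is lowest.

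Erg (Entrez gene 13876, probe set 1425370_a_at), the ETS relative of Fli1 that maintains stem cells, was dim. It read 3.15, 2.81 and 2.91 in nc/nc and 3.23, 2.86, 2.38 and 3.12 in wild type. Every reading lay below its array's median. The difference of 0.06 (SE 0.22, 95% interval −0.43 to 0.55; limma adjusted p = 0.976) therefore says little about the transcript, and it took the other sign without nc/nc 1 (−0.04) or wild-type 3 (−0.11).

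Across the heptad the wild-type samples were the more scattered group. The SD was larger in wild type than in nc/nc for 7 of 7 genes and 13 of 13 probe sets, against 68.7% of all genes and 68.8% of all probe sets. Wild-type 3 was the highest or the lowest array for 5 of 7 heptad genes, highest for Gata2, Lyl1 and Lmo2 and lowest for Runx1 and Erg. Over all genes it held such a place in 40.7%, the largest share of any array. Sample nc/nc 3 was the extreme array for 0 of 7, against 21.2% of all genes. The brightest Runx1 probe set, 1422864_at, had a profile over the 7 arrays most like those of Trip4, a transcription coactivator, and Rspry1. The root mean square differences were 0.126 and 0.129 log2 units after centring each profile, among 5344 genes compared. Trip4 and Rspry1 were also lowest in wild-type 3, at 4.24 and 5.57. The other Runx1 probe sets were not compared. The profiles most like that of the brighter Fli1 probe set, 1433512_at, were those of Tomm40, a pore of mitochondrial import, at 0.157 and Ywhae, a 14-3-3 protein, at 0.181. The closest of so many profiles over 7 arrays lie near by selection, and a relation of these genes was not tested. Ywhae read 8.39, 8.57 and 8.66 in nc/nc and 8.19, 8.44, 9.55 and 9.47 in wild type.

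Endothelial cells make Fli1, Erg, Tal1, Lmo2 and Gata2, so the members were set beside the arrays with high endothelial transcripts. No heptad probe set read higher in all 3 of those arrays than in the other 4. Fli1 read 6.71 to 7.65 there and 7.17 to 8.52 in the other 4, Lyl1 7.81 to 7.95 and 7.94 to 8.46, and Tal1 7.92 to 8.08 and 8.07 to 8.42. Erg read 2.81 to 3.23 there and 2.38 to 3.12 elsewhere. The ETS relatives Ets1 and Ets2, by contrast, followed them. Ets1, singled out after its values were seen, read 7.21, 7.88 and 7.60 in nc/nc 1, nc/nc 2 and wild-type 1 and 4.71 to 5.48 in the other arrays, and a second Ets1 probe set read 5.92, 7.14 and 6.48 against 3.41 to 4.51. Ets2 read 7.44, 7.66 and 7.90 there and 6.02 to 6.38 elsewhere, and its difference of 0.53 (SE 0.46) became −0.06 with the endothelial mean as a covariate. It was 0.28 without nc/nc 2, 0.33 without wild-type 3, 0.92 without nc/nc 3 and 0.96 without wild-type 1.

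**Figure D4:**
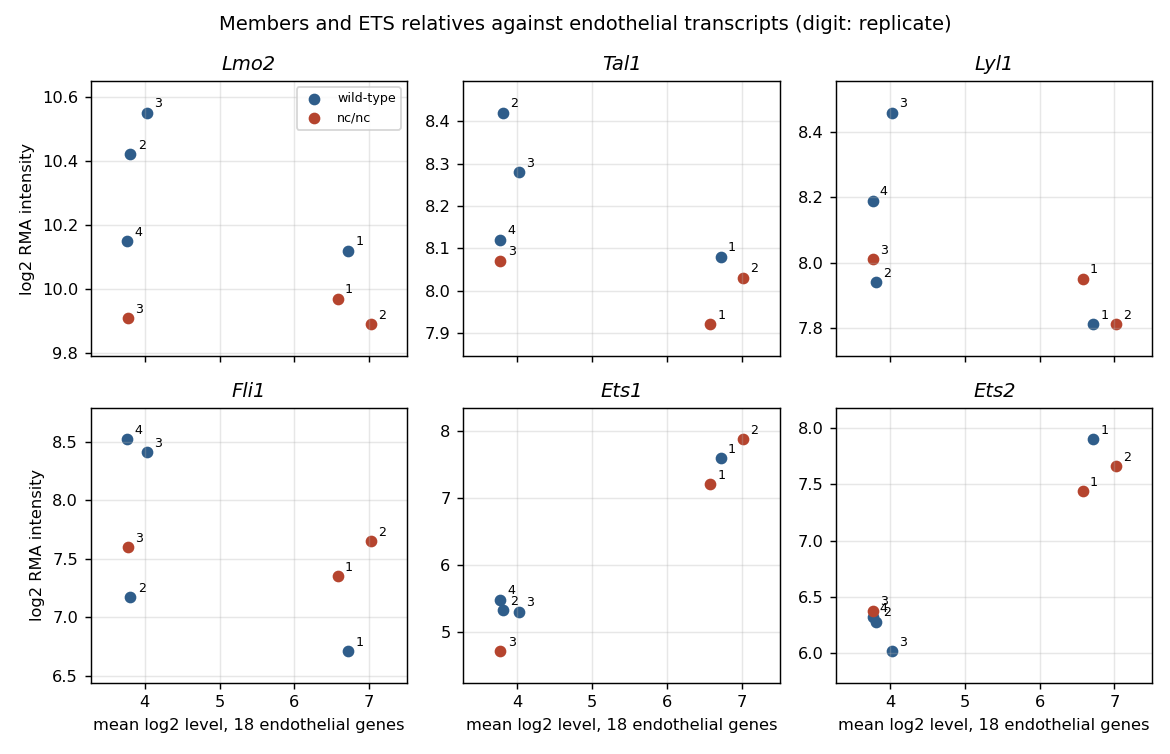
Log2 RMA intensity of 4 heptad genes and the relatives Ets1 and Ets2 against the mean log2 level of 18 endothelial genes, 1 point per array (blue wild-type, red nc/nc, digit for the replicate). Ets1 and Ets2 are high only in the 3 arrays at the right, at 6.58 to 7.02, while the heptad genes are not higher there.

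The proteins that work with the heptad were a list of 18 partners and cofactors, of which 17 were measured. In nc/nc 9 were higher and 8 lower, 0 passed over all genes (limma), 1 had an unadjusted p under 0.05, lower in nc/nc, and the median difference was 0.02. Over all genes 2.53% were that far lower, and 3.07% were lower without overlap. That 1 gene was Ssbp2, whose protein shields Ldb1 from degradation. It read 7.14, 7.31 and 7.49 in nc/nc and 7.62, 7.90, 8.0 and 8.08 in wild type. The groups did not overlap, and the difference was −0.59 (SE 0.16). The unadjusted limma p was 0.00528 and the adjusted p 0.934. It was −0.46 after adjustment for the endothelial mean. The dimmer Ssbp2 probe set, 4.24 to 5.13 in nc/nc and 4.59 to 5.93 in wild type, differed by −0.36 with overlapping groups.

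Ldb1 itself, which holds Lmo2 complexes together, differed by −0.48 (SE 0.31), with wild-type 4 at 6.24 and the other arrays at 4.65 to 5.59; it was −0.22 without wild-type 4 and −0.31 with the endothelial covariate. Cbfa2t3, the corepressor Eto2 of the Tal1 complex, differed by −0.28 (SE 0.15), or −0.18 with that covariate, and its other 3 probe sets by −0.33, −0.43 and −0.29. In 2 of its 4 probe sets the groups did not overlap, against 2.81% of all probe sets lower in nc/nc. Sin3a, a corepressor scaffold, differed by −0.39 (SE 0.25). Its lowest array was nc/nc 1, at 5.35, and without it the difference was −0.07. With the endothelial covariate it was −0.22, and the 2 dimmer Sin3a probe sets differed by −0.12 and −0.38. Cbfb, the partner of Runx1, differed by 0.10 and the E proteins Tcf3, Tcf4 and Tcf12 by 0.06, 0.09 and −0.01.

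Of 16 relatives of the member families 15 were measured, 7 higher and 8 lower, with a median of −0.01. None passed (limma), and 1 had an unadjusted p under 0.05, lower in nc/nc, against 2.53% of all genes. This was Spi1, the ETS factor PU.1 of myeloid and lymphoid cells, which read 4.11, 4.32 and 4.74 in nc/nc and 4.48, 4.77, 5.82 and 5.75 in wild type. The groups overlapped at wild-type 1, and the difference was −0.82 (SE 0.34; limma adjusted p = 0.934). It was −0.52 with the endothelial mean as a covariate. Lmo1, a relative of Lmo2, differed by −0.56 (SE 0.41), by −0.19 without wild-type 3, by −0.88 without wild-type 1 and by −0.26 with the endothelial covariate. Gata1, the erythroid GATA factor, differed by 0.10. Etv2, dim at 1.75 to 3.10, differed by −0.40, and by −0.15 without wild-type 1.

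Of 18 genes with regulatory elements known to be bound by several heptad factors 16 were measured, 5 higher and 11 lower in nc/nc, with a median of −0.15 beside −0.01 for all genes. The median was −0.27 without wild-type 1. None passed (limma), and 2 had an unadjusted p under 0.05, both lower, against 2.53% of all genes. These were Gfi1, a zinc finger repressor that keeps stem cells from cycling, at −0.77 (SE 0.29), and Spi1, which this list shares with the relatives. Gfi1 read 5.75, 6.17 and 6.73 in nc/nc and 6.35, 7.33, 7.23 and 7.04 in wild type, so only wild-type 1 lay within the nc/nc range. With the endothelial mean as a covariate its difference was −0.45. Hhex, a homeobox factor of early blood and endothelium, read 8.20, 8.16 and 8.34 in nc/nc and 8.37, 8.60, 8.50 and 8.86 in wild type, the 1 gene of this list whose groups did not overlap, against 3.07% of all genes lower. Its difference was −0.35 (SE 0.16), with a limma p of 0.0529 unadjusted and 0.934 adjusted. Smad6, an inhibitor of BMP signalling that endothelium also makes, differed by 0.44 (SE 0.23), by 0.27 without nc/nc 2 and by 0.19 with the endothelial covariate. The list holds 3 partners as well, Cbfa2t3, Zfpm1 and Gfi1b, so the counts of the lists are not independent.

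**Figure D5:**
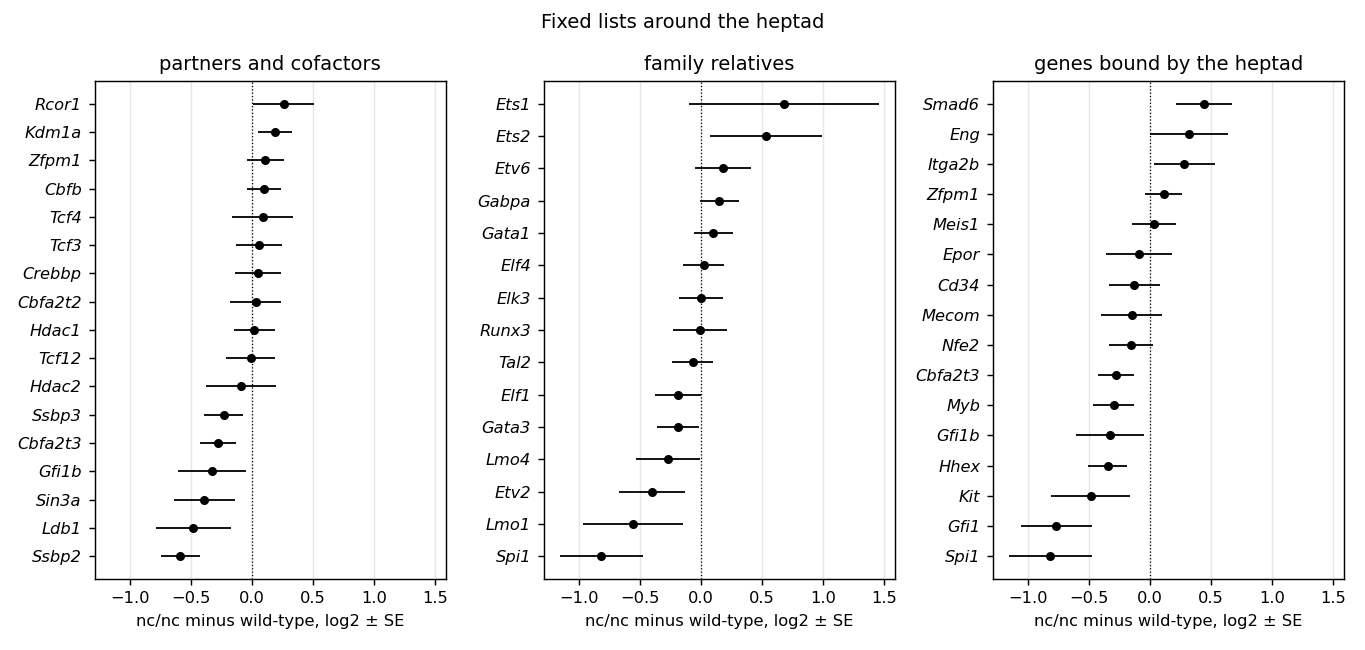
Log2 difference (nc/nc minus wild-type), with its SE as a bar, for the measured genes of 3 lists around the heptad, ordered by size within each list. Ssbp2, at −0.59, and Spi1, at −0.82, are the lowest of their lists, and none of the genes shown passed over all genes.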

How the data were processed

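The authors deposited 1 RMA intensity per probe set and array, on a linear scale. The submitters' processing notes name RMA and Affymetrix Expression Console and no versions, and detection calls were not used here. RMA shares a distribution between arrays and returns a value for every probe set, including those with little signal. Differences between dim probe sets may be understated, which was not tested. Log2 was taken without a pseudocount. Of 22690 probe sets 64 controls were left out. Genes were named by the platform annotation, with symbols brought up to date in RefSeq (GRCm38.p6) by Entrez identifier for 12369 of 12393 genes. The annotation gives 1 gene for 20380 probe sets, several for 691 and none for 1555.

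The brightest probe set stood for each gene. The main test was limma 3.58.1 (lmFit, then eBayes; R 4.3.3), 2-sided, on 7 arrays without covariates, over genes and over all probe sets, and the fit was tested on simulated data. The labels call the samples biological replicates; their number limits the precision. The labels give no batch, so none was tested. Members and lists were chosen with earlier results of these data known, and up to 4 genes of smallest p were named per list; Ets1, Gata1, Cbfb, Tcf3, Tcf4 and Tcf12 were named after their values were seen. Other settings covered probe set choice, dim genes, pseudocount, normalization, moderation, covariates, the replicate number and leaving out arrays. The planned comparison of member proteins was not run. Plots used matplotlib 3.10.9 (Python 3.11.15).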

Additional observations from a re-analysis of the deposited data

How the results depend on the processing

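In all 17 alternatives 0 of the 7 heptad genes passed (16 alternatives for Erg, which the filter above the median level removed), and 0 of 13 probe sets passed in 10. The count of all genes past the threshold, 1, was 0 above the median level and without moderation of the spread. It was 2 with embryo number as a covariate, and 1 to 3 when leaving out 1 array, 3 without wild-type replicate 1. Lmo2 stayed at −0.46 to −0.30, Tal1 at −0.26 to −0.15 and Lyl1 at −0.28 to −0.06, while Gata2 lay between −0.06 and 0.09, on both sides of 0. The adjusted p of Lmo2 ranged from 0.496 to 1. With the endothelial mean as a covariate Erg was −0.03, Fli1 0.11 and Ets2 −0.06. Leaving out 1 array gave −0.07 to 0.49 for Runx1, −0.11 to 0.17 for Erg and −0.50 to 0.10 for Fli1. The heptad median was −0.03 with the endothelial covariate and −0.26 to −0.04 on leaving out 1 array. The median of the relatives was −0.13 with each gene's most variable probe set (largest interquartile range) and −0.10 with the endothelial covariate. In the low endothelial arrays, where nc/nc 3 was the only nc/nc array, it was −0.15. On leaving out 1 array it was −0.09 to 0.09, and the median of the bound genes was −0.27 to −0.16.

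Whether the replicate numbers pair the samples could not be told from these values. Deviations of same-numbered samples correlated at 0.382, −0.193 and 0.105 over all genes. Those of differently numbered samples correlated at −0.548 to 0.384. With the replicate block Fli1 was 0.10, the heptad median −0.04, the relatives' median −0.09, and 1 gene passed in all; this fit drops wild-type replicate 4, which shares its number with no nc/nc sample.

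Low signal limits the reading of Erg, and probe sets that differ limit that of Runx1 and Fli1. Endothelial transcripts also differed between the arrays, and 3 against 4 arrays limit all members.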
